A study of Solanum lycopersicum with 26 samples.

Results

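A module of 100 tomato genes, of 33976 gene IDs in the deposited table, was higher after high temperature and lower after dim light in the endosperm of mature seeds. The members were chosen by their measured CPM (a gene's count scaled to a library total of 1000000 counts) in the HT_HL, ST_DL and ST_HL endosperm libraries. The rule asked for a mean of at least 1 CPM in ST_HL, which 16725 IDs had, a mean at least 2 times higher in HT_HL than in ST_HL, and a mean at least 2 times lower in ST_DL than in ST_HL. Each HT_HL library also had to lie above, and each ST_DL library below, all ST_HL libraries. The endosperm differences of HT_HL and ST_DL from ST_HL are therefore given as a description with no test. The HT_DL endosperm libraries and all embryo libraries had no part in the choice.

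All groups were Solanum lycopersicum cv. Moneymaker, and all fruits were picked at breaker, the first change of fruit colour, at 63 days after flowering (DAF), then kept for 7 days in growth chambers off the plant, so that every seed was 70 DAF old. HT_HL chambers ran at 32 °C by day and 26 °C by night with light of 300 µE, ST_DL chambers at 23 °C and 20 °C with dim light of 25 µE, HT_DL chambers at 32 °C and 26 °C with 25 µE, and ST_HL chambers, the standard, at 23 °C and 20 °C with 300 µE, each with 16 h of light. Embryo and endosperm were separated by hand in pools of 10 seeds and sequenced in 26 libraries, 3 for each endosperm group, 3 for HT_HL and ST_DL embryos and 4 for HT_DL and ST_HL embryos. Each pool drew on more than 1 fruit, and nothing in the labels says that the pools of a group came from separate plants, so p-values measure the spread between these pools. In such bulk samples, fewer cells of a type and less RNA per cell cannot be told apart.

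The endosperm of a tomato seed is a living tissue around the embryo that stores oil and protein, and the radicle must break through it at germination. In the last phase of seed development both tissues lay down reserves and protective proteins before they dry. Plant cells answer heat mainly through heat shock transcription factors, which switch on genes for chaperones, and they sense light through phytochromes and other photoreceptors, whose signal in a seed is filtered by the fruit flesh around it. The gene annotation at hand was partial (GO terms for 2000 IDs and Mapman bins for 1561 IDs), and it held only 7 members. The other members are given by ID, with no role.

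Library totals lay between 20450644 and 21519318 counts. In a principal component analysis of embryos, component 1 set replicates 2 and 3 of HT_DL and of ST_HL apart from the rest. The edgeR counts of members called in embryo comparisons are also given without these libraries. Most other embryo counts include them. The annotation at hand had no marker that separates endosperm from embryo. The 10 oleosin genes, whose proteins coat the oil bodies of seeds, summed to 4534 to 6872 CPM over the endosperm libraries and 3992 to 7668 CPM over the embryo libraries. The 21 genes of the light-harvesting complex of green tissue summed to 7.91 to 14.7 CPM in endosperm and 4.40 to 25.3 CPM in embryo, and 6 to 12 of the 21 were at 0 in all libraries of a group. CPM values are not divided by transcript length, so levels were compared between libraries and not between genes.

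In the endosperm, the mean of a member was 2.00 to 11.8 times higher in HT_HL than in ST_HL (median 3.13) and 2.00 to 22 times lower in ST_DL than in ST_HL (median 2.78). Nearest to the minimum level, Solyc08g082590.3.1 was a member with a ST_HL mean of 1.02 CPM, and Solyc01g107090.2.1 was not, with 0.999 CPM. For the heat factor, Solyc02g093050.3.1 was just inside with a ratio of 2.00, and Solyc05g056270.3.1 just outside with 1.98. For the dim light factor, Solyc04g082060.4.1 was just inside with a ratio of 2.00, and Solyc04g009440.3.1 just outside with 1.99. Summed over the 100 members, the counts made up 7864, 6838 and 7128 CPM in the HT_HL endosperm libraries, 697, 753 and 770.0 CPM in ST_DL, 3732, 2203 and 2006 CPM in HT_DL and 2643, 2984 and 2034 CPM in ST_HL. A single member, Solyc08g062437.1.1, supplied 19.8 to 25.0% of this sum in HT_HL, 4.31 to 5.20% in ST_DL, 4.88 to 10.5% in HT_DL and 20.1 to 26.2% in ST_HL.

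**Figure D1:**
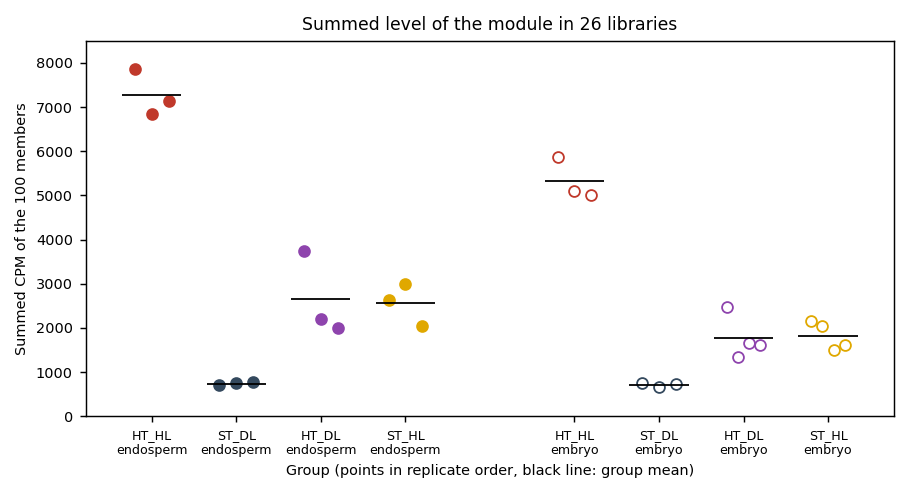
Summed CPM of the 100 members (linear axis) in each library, with endosperm as filled and embryo as open points in replicate order and black lines at group means. HT_HL libraries stood highest in both tissues (6838 to 7864 CPM in endosperm), ST_DL libraries lowest (697 to 770.0 CPM in endosperm), and HT_DL and ST_HL libraries overlapped. The rule itself set the endosperm order of HT_HL, ST_HL and ST_DL.

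Among members with a ST_HL mean of at least 5 CPM, the 4 with the highest ratio of HT_HL to ST_DL were Solyc08g062340.3.1, Solyc08g062437.1.1, Solyc08g078700.2.1 and Solyc03g123540.3.1. Solyc08g062437.1.1 had 1586, 1355 and 1784 CPM in HT_HL endosperm and 30.1, 38.7 and 40.0 CPM in ST_DL, against 576, 780.4 and 409 CPM in ST_HL. Solyc08g062340.3.1, whose ID lies 9 places from it on chromosome 8, had 173, 130.4 and 287 CPM in HT_HL and 2.18, 2.59 and 2.60 CPM in ST_DL, against 42.3, 85.3 and 24.4 CPM in ST_HL. Across the 26 libraries the log2 CPM of this pair had a Pearson r of 0.97, over points that share the conditions that chose both genes.

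The members lay on all 12 chromosomes, from 2 on chromosome 5 to 14 on chromosome 2, with 12 on chromosomes 1 and 3 each, 11 on chromosome 4 and 10 on chromosome 8. In the order of IDs, 16 members formed 8 pairs at most 10 IDs apart, and 2 of these pairs were direct neighbours, Solyc08g068690.1.1 with Solyc08g068700.1.1 and Solyc09g011560.3.1 with Solyc09g011590.4.1. Reads of near-identical copies can be split between them by the counting, so the values of such neighbours may not be independent.

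The Mapman part at hand held only bins of photosynthesis, respiration and carbohydrate, amino acid, lipid and nucleotide metabolism. Members with other roles could not appear in it, so it gives no theme for the module. Of the 5 members with a Mapman bin, 3 fell into a single one, the synthesis of phenylalanine and tyrosine. This bin holds 10 IDs, beside 1561 IDs in that part. Arogenate dehydratase makes phenylalanine and arogenate dehydrogenase makes tyrosine from the same precursor, arogenate. The arogenate dehydrogenase Solyc09g011870.3.1 had 273, 253 and 175 CPM in HT_HL endosperm, 35.1, 35.1 and 33.2 CPM in ST_DL and 171, 120.0 and 81.2 CPM in HT_DL, against 85.1, 73.6 and 65.9 CPM in ST_HL. The arogenate dehydratase Solyc06g074530.1.1 had 54.6, 23.2 and 43.7 CPM in HT_HL, 3.8, 2.62 and 2.66 CPM in ST_DL and 32.7, 21.3 and 18.7 CPM in HT_DL, against 8.47, 9.21 and 5.11 CPM in ST_HL. All 3 HT_DL libraries of Solyc06g074530.1.1 and 2 of the 3 of Solyc09g011870.3.1 lay above every ST_HL library. The other arogenate dehydratase among the members, Solyc11g066890.1.1, had 11.7, 17.0 and 7.57 CPM in HT_HL, 1.93, 2.95 and 1.90 CPM in ST_DL and 14.2, 10.5 and 5.66 CPM in HT_DL, against 4.69, 5.01 and 4.25 CPM in ST_HL. Over the 10 IDs of the bin, 9 had a positive HT_DL over ST_HL log2 fold change in endosperm (median 0.45, with 51.7% of all genes tested positive), with 1 called higher and 0 lower in edgeR (7 and 0 at an unadjusted p below 0.05, 2 and 0 with DESeq2, 0 and 0 with limma voom). The 1 edgeR call was the member Solyc06g074530.1.1. The 3 members in the bin were chosen with the ST_HL endosperm libraries that this comparison also uses. In HT_HL against ST_HL embryos only 1 of the 9 IDs tested was positive (median -0.75), with 0 called higher and 2 lower (1 and 2 at an unadjusted p below 0.05, 0 and 1 with DESeq2, 0 and 2 with limma voom). These embryo values include the libraries that lay apart, in ST_HL replicates 2 and 3, and are not given without them. Solyc09g011870.3.1 had 0.581, 4.30, 3.84 and 0.961 CPM in ST_HL embryos in replicate order, and Solyc06g074530.1.1 had 0.533, 3.31, 2.35 and 0.288 CPM. Solyc11g066890.1.1 did not follow these libraries, with 15.8, 15.2, 16.3 and 17.1 CPM. Of all genes tested, 0.354% were called higher and 0.245% lower in the endosperm comparison, with 5.17% and 5.79% at an unadjusted p below 0.05. In the embryo comparison 45.1% of all genes were positive, 1.43% were called higher and 3.41% lower, with 17.4% and 20.1% at an unadjusted p below 0.05. This bin was singled out after its values were seen, and a further arogenate dehydrogenase in it, Solyc07g007590.1.1, missed the rule on dim light, with means of 18.2 CPM in HT_HL, 6.72 CPM in ST_DL, 11.2 CPM in HT_DL and 8.29 CPM in ST_HL.

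The remaining annotated members belong to carbon, lipid and wall metabolism. Solyc04g005160.3.1, a 6-phosphogluconate dehydrogenase that makes NADPH in the oxidative pentose phosphate pathway, averaged 21.9 ± 3.23 CPM in HT_HL endosperm, 4.64 ± 1.33 CPM in ST_DL and 14 ± 4.18 CPM in HT_DL, and 10.1 ± 1.21 CPM in ST_HL (SD, n = 3 each). Solyc09g083050.3.1, a 3-ketoacyl-CoA synthase of the kind that lengthens fatty acids for waxes, cutin or suberin, averaged 31.7 ± 7.43 CPM in HT_HL, 2.16 ± 0.688 CPM in ST_DL and 5.72 ± 1.15 CPM in HT_DL, and 9.45 ± 1.65 CPM in ST_HL. These 2 genes parted in HT_DL, the dehydrogenase with a mean above ST_HL and the synthase with every HT_DL library (7.05, 4.94 and 5.18 CPM) below every ST_HL library (8.24, 11.3 and 8.80 CPM). Solyc01g059940.2.1, annotated with pectinesterase and pectinesterase inhibitor activity and so with the methylation of wall pectin, averaged 15.1 ± 4.26 CPM in HT_HL, 1.99 ± 0.778 CPM in ST_DL and 4.71 ± 1.03 CPM in HT_DL, and 6.02 ± 3.01 CPM in ST_HL. Solyc01g009870.3.1, annotated with glycerophosphodiester phosphodiesterase activity, which frees glycerol phosphate from broken down membrane lipids, averaged 8.22 ± 1.82 CPM in HT_HL, 1.49 ± 0.689 CPM in ST_DL and 3.42 ± 0.947 CPM in HT_DL, and 3.86 ± 0.192 CPM in ST_HL. In edgeR, none of these 4 genes passed the test of HT_DL against ST_HL endosperm (adjusted p = 0.55, 0.171, 0.804 and 0.881 in the order named).

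Only 2 members were in the part of the GO annotation at hand. Neither carried any of the GO terms examined for heat, chaperones, light or seed maturation, and the other members could not be checked. Of the 15 IDs annotated with response to heat in that part, 0 were members. With only 2 members in that part, this 0 cannot show whether the module holds heat response genes. The test results that follow are for listed IDs that are not members. Of these 15, 10 were tested in HT_DL against ST_HL endosperm, and edgeR, DESeq2 and limma voom called 0 of them (0 higher and 1 lower at an unadjusted p below 0.05). Of the 56 IDs annotated with response to abscisic acid, a hormone of seed maturation and drying, 36 were tested there and 1 was called higher and 0 lower (2 and 2 at an unadjusted p below 0.05, 1 and 0 with DESeq2, 0 and 0 with limma voom). Of all genes tested, 0.354% were called higher and 0.245% lower, with 5.17% and 5.79% at an unadjusted p below 0.05. The median log2 fold changes were -0.19 and 0.072, beside 0.0081 over all 19185 genes tested.

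The combined condition, HT_DL, asks how the endosperm responds when heat, which raised the members, came together with dim light, which lowered them. The mean HT_DL level reached or passed HT_HL in 10 members, lay between ST_HL and HT_HL in 61, between ST_DL and ST_HL in 27 and below ST_DL in 2. As a share of the HT_HL mean it ranged from 3.93 to 132%, with a median of 48.8%. All HT_DL libraries lay above all ST_HL libraries in 42 members, against 10.2% of all genes with a ST_HL mean of at least 1 CPM, and below them in 12 members, against 6.3%. HT_DL libraries all lay above all ST_DL libraries in 86 members (24.9% of those genes) and below all HT_HL libraries in 51 members (15.3% of those genes). The ST_HL, ST_DL and HT_HL libraries of these counts were all used to choose the members, so the counts are descriptions. By these counts the module split in HT_DL, with more members on the heat side of ST_HL than on the dim light side.

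In edgeR's quasi-likelihood test with Benjamini-Hochberg adjustment over all genes (called: adjusted p below 0.05 and a log2 fold change above 1 or below -1), 14 of the 100 members were called higher in HT_DL than in ST_HL endosperm, against 0.354% of all genes tested, and 3 were called lower, against 0.245%. The median log2 fold change of the members was 0.69 and 71 were positive. The ST_HL libraries of this comparison also took part in the choice of the members. The calls were close to the threshold (adjusted p of 0.00951 to 0.0486), and the number called higher was 3 or 4 when HT_DL replicate 1 or 2 was left out, 6, 0 or 3 when ST_HL replicate 1, 2 or 3 was left out, and 28 with DESeq2. The number called lower was 4 without HT_DL replicate 1 or ST_HL replicate 3. It was 0 without HT_DL replicate 2 or 3 or without ST_HL replicate 1 or 2, 0 with limma voom and 9 with DESeq2. Without HT_DL replicate 1, the median log2 fold change of the members was 0.34 and 66 were positive. With the HT_DL and ST_HL libraries fitted alone, 0 members were called either way.

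**Figure D2:**
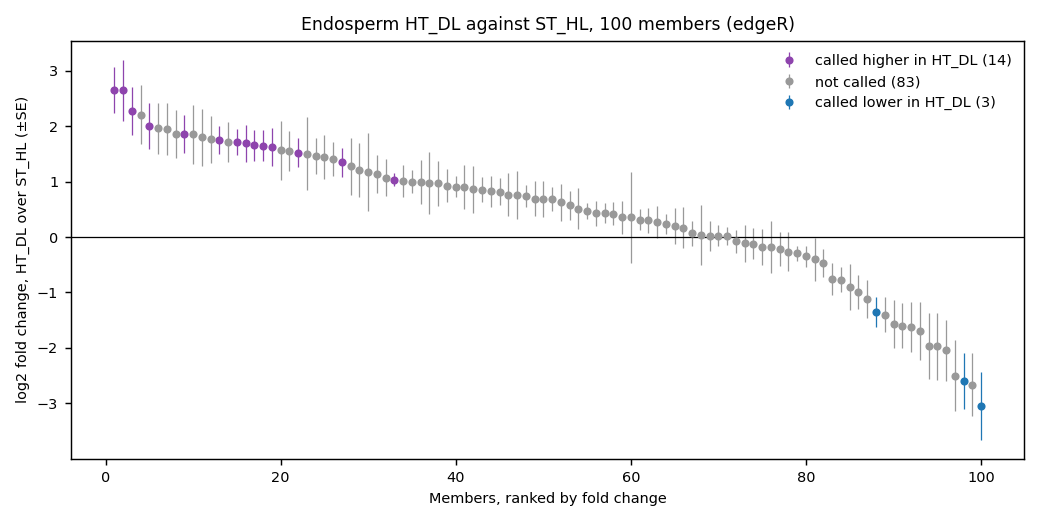
Log2 fold change of HT_DL over ST_HL endosperm with its standard error for each of the 100 members (x axis: rank), from edgeR fitted on the 12 endosperm libraries. The 14 members called higher lie between 1.03 and 2.65, the 3 called lower between -3.05 and -1.35, and 71 members are above 0.

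Among members with a ST_HL mean of at least 5 CPM, those with the highest HT_DL over ST_HL fold change were Solyc04g077980.1.1, Solyc10g052880.1.1 and Solyc02g064570.2.1. Solyc10g052880.1.1 had 28.8, 18.4 and 24.4 CPM in HT_DL, against 6.89, 7.51 and 4.64 CPM in ST_HL, and rose by a log2 fold change of 1.86 ± 0.34 (adjusted p = 0.036, edgeR). Solyc02g064570.2.1 had 28.8, 18.0 and 15.1 CPM in HT_DL, against 9.10, 3.45 and 6.02 CPM in ST_HL, with a log2 fold change of 1.69 ± 0.33 (adjusted p = 0.0426). In both genes the HT_DL libraries lay above every ST_HL library and overlapped the HT_HL libraries (39.9, 42.5 and 19.8 CPM and 22.7, 17.3 and 19.8 CPM). Solyc04g077980.1.1 had 71.0, 31.7 and 21.1 CPM in HT_DL, against 12.9, 11 and 6.79 CPM in ST_HL, and its log2 fold change of 1.96 ± 0.46 missed the threshold (adjusted p = 0.0741). The arogenate dehydratase Solyc06g074530.1.1 was also called higher, with a log2 fold change of 1.62 ± 0.34 (adjusted p = 0.0486), while Solyc11g066890.1.1 (1.07 ± 0.33, adjusted p = 0.189) and the arogenate dehydrogenase Solyc09g011870.3.1 (0.68 ± 0.22, adjusted p = 0.22) were not. Solyc01g111980.3.1, among the 6 members with the most counts in HT_HL, had 501, 691 and 339.8 CPM in HT_HL, 79.2, 80.2 and 86.2 CPM in ST_DL and 452, 355 and 309.7 CPM in HT_DL, against 193, 181 and 201 CPM in ST_HL. Its HT_DL libraries did not overlap ST_HL, and its log2 fold change of 0.91 ± 0.19 was under the fold threshold (adjusted p = 0.0483).

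Other members had a mean below ST_HL when heat and dim light were combined, and some of these were close to the ST_DL level. Solyc08g078700.2.1 had 214, 133 and 439 CPM in HT_HL, 7.27, 7.19 and 7.71 CPM in ST_DL and 15.8, 5.76 and 9.32 CPM in HT_DL, against 86.4, 133 and 27.7 CPM in ST_HL, and fell in HT_DL by a log2 fold change of -3.05 ± 0.61 (adjusted p = 0.0428). Solyc03g123540.3.1 had 19.8, 16.4 and 35 CPM in HT_HL, 0.915, 0.571 and 0.856 CPM in ST_DL and 1.69, 0.623 and 0.808 CPM in HT_DL, against 6.32, 9.21 and 2.82 CPM in ST_HL, with a log2 fold change of -2.60 ± 0.51 (adjusted p = 0.0417). Every HT_DL library of both genes was below every ST_HL library, and HT_DL overlapped ST_DL. The third called lower, Solyc03g096630.1.1, named after its values were seen, had 5.65, 4.70 and 4.61 CPM in HT_DL, against 15.4, 13.1 and 8.46 CPM in ST_HL (log2 fold change -1.35 ± 0.27, adjusted p = 0.042). Solyc08g062340.3.1 (15.8, 4.92 and 4.18 CPM in HT_DL, log2 fold change -2.66 ± 0.57, adjusted p = 0.0524) and Solyc08g062437.1.1 (391, 107 and 117 CPM, -1.57 ± 0.44, adjusted p = 0.138) lay on the same side of ST_HL without passing the test. Solyc10g078930.2.1 stayed near the standard, with 376, 267 and 253 CPM in HT_DL, against 367, 384 and 316 CPM in ST_HL (log2 fold change -0.30 ± 0.14, adjusted p = 0.469).

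**Figure D3:**
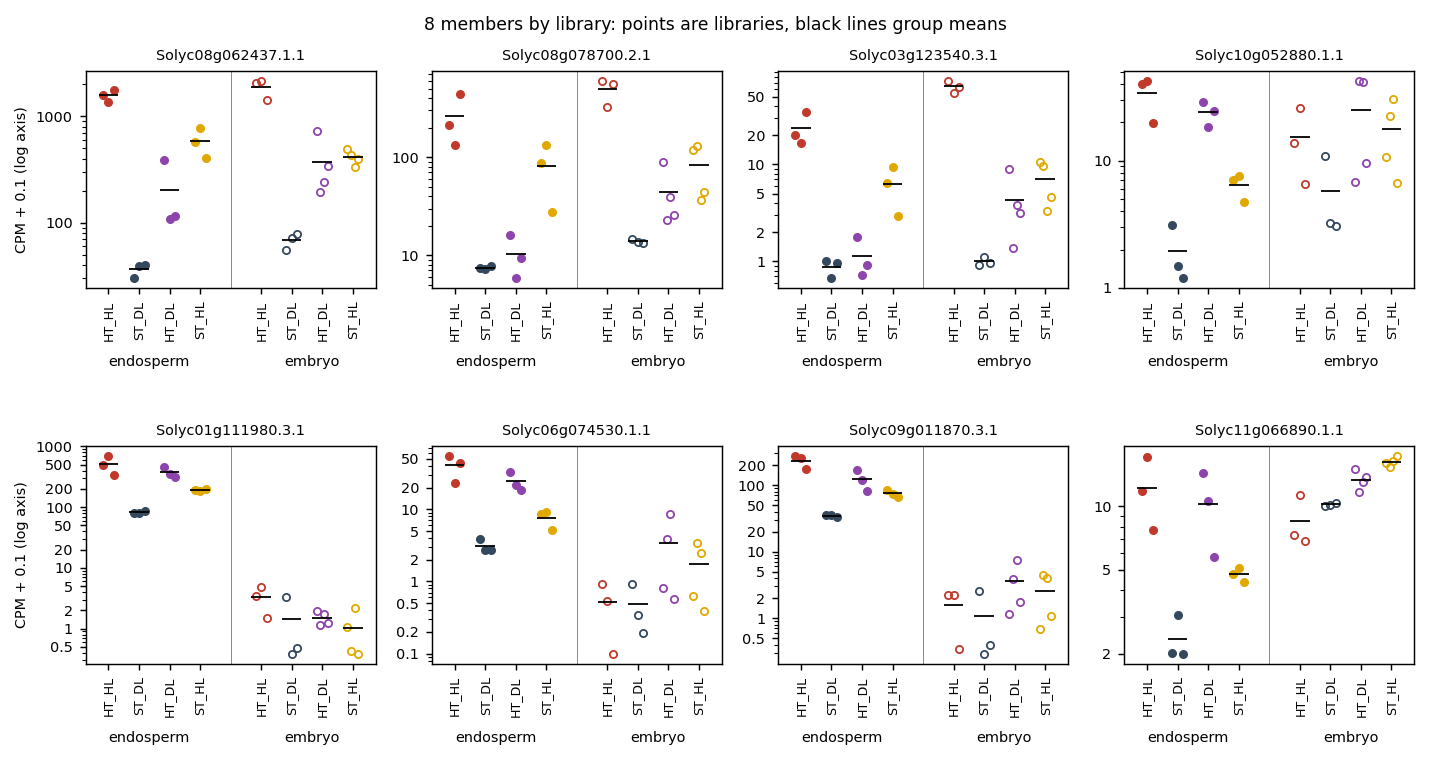
CPM + 0.1 (log axis) of 8 members in each library, endosperm as filled and embryo as open points, black lines at group means. In HT_DL endosperm, Solyc10g052880.1.1, Solyc01g111980.3.1, Solyc06g074530.1.1 and Solyc09g011870.3.1 had means above ST_HL, while Solyc08g062437.1.1, Solyc08g078700.2.1 and Solyc03g123540.3.1 had means below it.

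HT_DL endosperm replicate 1 stood out for the module. It was the highest of the 3 HT_DL libraries in 83 of the 100 members, against 40.6% of all genes with a ST_HL mean of at least 1 CPM, and the median ratio of replicate 1 to the mean of replicates 2 and 3 was 1.73 over the members and 1.03 over all genes. In the embryo, HT_DL replicate 1 also had the highest summed level of its group, with 2465 CPM against 1350.0, 1659 and 1613 CPM in replicates 2, 3 and 4. Replicate 1 was thus nearer to HT_HL than the other HT_DL pools in both tissues when the members are summed. In a principal component analysis of endosperm over all genes past the filter, replicate 3 was the HT_DL library that lay apart. It stood at -65.5 on component 1, and replicates 1 and 2 at 24.5 and 17.6. The ST_HL endosperm libraries were also spread along this component, at 8.88, -57.7 and -36.9.

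**Figure D4:**
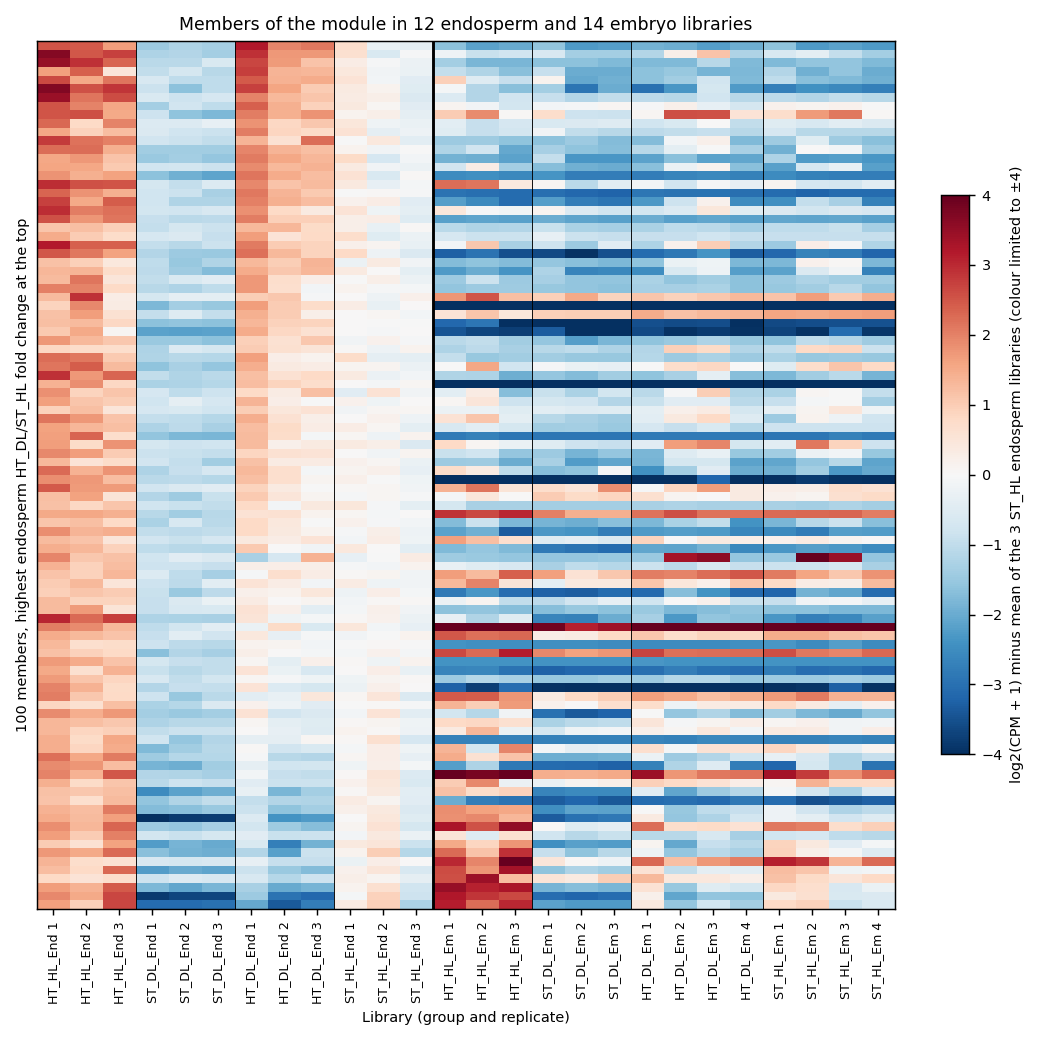
Level of the 100 members (one line each, ordered by the endosperm HT_DL over ST_HL fold change) in the 26 libraries, as log2(CPM + 1) minus the mean of the ST_HL endosperm libraries, with colours limited to a difference of 4 either way. In HT_DL endosperm the upper 71 lines have positive and the lower 29 negative fold changes, and replicate 1 is the highest of its group in 83 members.

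Summed over the 100 members, the embryo libraries held 5869, 5094 and 5006 CPM in HT_HL, 744, 664 and 735 CPM in ST_DL and 2465, 1350.0, 1659 and 1613 CPM in HT_DL, against 2159, 2048, 1499.8 and 1603 CPM in ST_HL. HT_HL was highest and ST_DL lowest with no overlap, while in endosperm the rule itself set HT_HL above and ST_DL below ST_HL. Solyc08g062437.1.1 supplied 28.6 to 42.7% of the sum in HT_HL embryos and 7.42 to 10.8% in ST_DL embryos. Without it the sums were 2918 to 3829 CPM in HT_HL, 592 to 689 CPM in ST_DL, 1156 to 1738 CPM in HT_DL and 1163 to 1667 CPM in ST_HL. In the embryo, 80 of the 100 members had enough counts to be tested, and 20 did not pass the filter on low counts. A member can pass it through the group in which it is high. Heat raised part of the module there: 20 members were called higher in HT_HL than in ST_HL embryos, against 1.43% of all genes tested, and 1 was called lower, against 3.41%. The median log2 fold change was 0.61 over the 80 members and -0.069 over all genes, and 56 of the 80 were positive. The 20 calls had log2 fold changes of 1.04 to 3.13, and their number was 7 without HT_HL replicate 1 and 12 without ST_HL replicate 3. Without the 4 embryo libraries that lay apart it was 18, with 1 member called lower. Of the 78 members tested without them, 68 were positive, with a median of 0.93, and 0.017 over all genes.

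Of the members called higher, Solyc03g123540.3.1 had the largest fold change, with 73.4, 54.9 and 63.0 CPM in HT_HL embryos, against 10.6, 9.58, 3.22 and 4.51 CPM in ST_HL (log2 fold change 3.13 ± 0.53, adjusted p = 0.00348). Solyc09g092690.3.1 had 160.5, 133 and 127 CPM in HT_HL embryos, against 36.9, 25.1, 17.9 and 20.4 CPM in ST_HL (2.42 ± 0.34, adjusted p = 0.00157). Solyc04g014480.3.1 had 311, 168 and 245 CPM in HT_HL embryos, against 88.2, 71.2, 47.6 and 57.7 CPM in ST_HL (1.82 ± 0.32, adjusted p = 0.00389). No HT_HL library of these 3 genes overlapped ST_HL. The phosphodiesterase Solyc01g009870.3.1 was called higher as well (1.19 ± 0.37, adjusted p = 0.0423). The only member called lower was the arogenate dehydratase Solyc11g066890.1.1, with 7.19, 11.2 and 6.70 CPM in HT_HL embryos, against 15.8, 15.2, 16.3 and 17.1 CPM in ST_HL (-1.01 ± 0.16, adjusted p = 0.00235), the direction opposite to that by which it was chosen in endosperm. That call was lost in 8 of 16 alternatives: without HT_HL replicate 1 or 3 or ST_HL replicate 1 or 4, with DESeq2, with the replicate block, and with both groups fitted alone with or without that block. Its log2 fold change lay between -1.21 and -0.91 throughout. Of the other annotated members, the 3-ketoacyl-CoA synthase (-0.54 ± 1.1, adjusted p = 0.741), the 6-phosphogluconate dehydrogenase (-0.17 ± 0.44, adjusted p = 0.796) and the arogenate dehydrogenase (-0.75 ± 1.00, adjusted p = 0.602) did not pass the test.

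Members called in dim light embryos were all lower. In ST_DL against ST_HL embryos 7 members were called lower, against 0.493% of all genes tested, and 0 higher, against 0.0935%. At an unadjusted p below 0.05, 2 members were higher and 28 lower, and DESeq2 called 0 higher and 16 lower, limma voom 0 and 3. The median log2 fold change was -0.66 over the 80 members and -0.077 over all genes, and 19 members were positive. Without the 4 embryo libraries that lay apart, the median was -0.27 over the 78 members tested and -0.012 over all genes, and 27 members were positive. In that fit 6 members were called lower and 0 higher, with 41 and 11 of all 18179 genes tested. Solyc08g062340.3.1 had 4.51, 4.10 and 4.54 CPM in ST_DL embryos, against 58.3, 70.7, 29.0 and 29.8 CPM in ST_HL (-3.22 ± 0.58, adjusted p = 0.0187), and Solyc08g062437.1.1 had 55.3, 71.4 and 77.7 CPM, against 492, 436, 337 and 398 CPM (-2.41 ± 0.40, adjusted p = 0.0155). Solyc03g113930.3.1 (-1.83 ± 0.38, adjusted p = 0.0319), Solyc01g102960.3.1 (-2.48 ± 0.51, adjusted p = 0.0314) and Solyc03g123540.3.1 (-2.76 ± 0.63, adjusted p = 0.0442) were called with them. The number called lower was 0 without any 1 of the ST_DL replicates, and 2, 1 and 3 without ST_HL replicate 1, 2 and 4. Solyc10g078930.2.1 moved less but with little spread, with 147, 169 and 176 CPM in ST_DL, against 374, 395, 323 and 330.2 CPM in ST_HL (-0.91 ± 0.15, adjusted p = 0.0127), under the fold threshold.

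When the rule that chose the members was applied to the embryo libraries, it was met by 0.297% of the 17170 IDs with a ST_HL embryo mean of at least 1 CPM, 51 IDs in all. Of the 63 members above that level 12 met it, which is 12% of the members and 23.5% of the IDs that met it in the embryo. They were Solyc01g080030.3.1, Solyc02g093600.3.1, Solyc03g113930.3.1, Solyc03g123540.3.1, Solyc04g014480.3.1, Solyc08g062340.3.1, Solyc08g062437.1.1, Solyc08g078700.2.1, Solyc08g080540.3.1, Solyc09g092690.3.1, Solyc11g020330.1.1 and Solyc12g042830.3.1, named because they met it. In the endosperm all 12 had a negative log2 fold change of HT_DL over ST_HL, from -3.05 to -0.26 with a median of -1.59, against a median of 0.82 over the other 88 members. Their HT_DL endosperm level was 3.93 to 26.2% of HT_HL (median 10.9%), and their HT_DL embryo level 6.50 to 76.4% of HT_HL (median 18.9%). Embryo and endosperm libraries of a condition may come from the same seeds, which the labels do not say.

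Of these 12 genes, 11 were among the 20 members called higher in HT_HL embryos. The rule and that call use the same HT_HL and ST_HL embryo libraries, so this overlap follows largely from the choice. The 20 members called higher in HT_HL embryos had a median endosperm log2 fold change of -1.23 in HT_DL over ST_HL, and 14 of them were negative, with all 3 members called lower and 1 of the 14 called higher. The negative values came mostly from the 11 shared genes: of the other 9, 6 were positive and 3 negative, with a median of 0.068. The 60 members tested in the embryo without such a call had a median of 0.82, and 49 were positive, with 9 called higher. The 20 members with too few embryo counts to test had a median of 1.24, and 16 were positive, with 4 called higher. As a share of HT_HL, the endosperm HT_DL level had medians of 14.2%, 54.8% and 52.7% in these 3 sets. Over the 80 members tested in both tissues, the endosperm HT_DL over ST_HL and the embryo HT_HL over ST_HL log2 fold changes had a Pearson r of -0.39 and a Spearman rho of -0.44. Both include the 11 shared genes, are descriptions over genes, which are not independent, and no test was made of them.

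**Figure D5:**
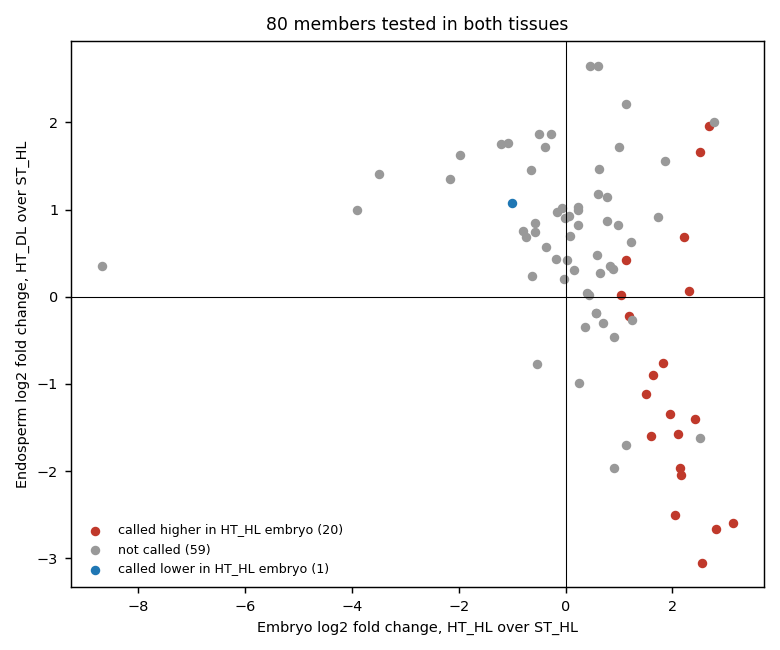
Endosperm HT_DL over ST_HL (y axis) against embryo HT_HL over ST_HL (x axis) log2 fold changes of the 80 members tested in both tissues, each point a member, coloured by its embryo call. Of the 20 members called higher in HT_HL embryos 14 lie below 0 on the y axis, and the point at -8.67 on the x axis is Solyc04g150104.1.1, whose embryo counts came mainly from the 4 libraries that lay apart.

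No member passed the test between the combined condition and the standard in the embryo. In HT_DL against ST_HL embryos edgeR called 0 members either way, and 0% of all genes in each direction, 1 member being higher and 4 lower at an unadjusted p below 0.05. DESeq2 and limma voom also called 0 members, as did edgeR without the 4 embryo libraries that lay apart. Against the single treatments the embryo differed: 16 members were called lower in HT_DL than in HT_HL embryos, against 1.49% of all genes, and 0 higher, against 2.36% (4 at an unadjusted p below 0.05, 3 with DESeq2, 0 with limma voom). Of those 16, 14 were among the 20 called higher in HT_HL, a group that shares its HT_HL libraries with this comparison. The number called lower was 10 without HT_HL replicate 1, 9 with both groups fitted alone and 14 without the 4 libraries that lay apart. Against ST_DL, 7 members were called higher in HT_DL embryos, against 0.836% of all genes, and 0 lower, against 0.395% (1 at an unadjusted p below 0.05, 0 with DESeq2 and with limma voom). That number was 3, 1 and 3 without ST_DL replicate 1, 2 and 3, 4 without HT_DL replicate 3, 11 without the 4 libraries that lay apart, 19 with DESeq2 and 3 with limma voom.

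Solyc08g062437.1.1 had 727, 194, 242 and 343 CPM in HT_DL embryos, against 2041, 2176 and 1431 CPM in HT_HL (-2.21 ± 0.37, adjusted p = 0.00451) and 55.3, 71.4 and 77.7 CPM in ST_DL (2.31 ± 0.40, adjusted p = 0.00968). HT_DL lay between the single treatments with no overlap. Solyc08g062340.3.1 had 51.4, 9.83, 14.4 and 14 CPM in HT_DL embryos, and differed from HT_HL by -3.84 ± 0.53 (adjusted p = 0.00202) and from ST_DL by 2.19 ± 0.56 (adjusted p = 0.0459) on the log2 scale. Solyc10g078930.2.1 had 499, 345, 386 and 426 CPM in HT_DL embryos, and differed from ST_DL by 1.18 ± 0.15 (adjusted p = 0.00208). Of the members with the smallest adjusted p of HT_DL against ST_HL, Solyc07g044970.1.1 had 4.48, 1.77, 3.58 and 3.26 CPM in HT_DL embryos, against 1.74, 1.04, 1.30 and 2.02 CPM in ST_HL (1.14 ± 0.38, adjusted p = 0.86), and Solyc06g005680.4.1 had 7.04, 5.20, 6.04 and 5.82 CPM, against 9.79, 9.63, 7.73 and 7.35 CPM (-0.48 ± 0.18, adjusted p = 0.912). Solyc01g102960.3.1 (-1.05 ± 0.43, adjusted p = 0.928) and Solyc11g020330.1.1 (-1.37 ± 0.50, adjusted p = 0.88) did not pass either.

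More members were higher in endosperm than in embryo under HT_DL than were lower. In HT_DL endosperm against HT_DL embryos, 59 members were called higher, against 17.2% of all genes tested, and 13 lower, against 15%, with a median log2 fold change of 2.37 over the members and -0.053 over all genes. Without the 4 embryo libraries that lay apart, 67 members were called higher and 16 lower, with 4512 and 2912 of all 20699 genes tested. The rule set a minimum level in endosperm and none in the embryo, and all genes tested had no such minimum. Part of this excess therefore follows from the choice. Solyc01g111980.3.1 had 452, 355 and 309.7 CPM in HT_DL endosperm, against 1.83, 1.05, 1.63 and 1.14 CPM in HT_DL embryos (8.20 ± 0.59, adjusted p = 1.93e-10). Solyc01g109460.3.1 had 388, 245 and 198 CPM in endosperm, against 2.70, 2.39, 2.79 and 1.37 CPM in embryos (7.07 ± 0.55, adjusted p = 6.82e-10). The arogenate dehydrogenase Solyc09g011870.3.1 had 171, 120.0 and 81.2 CPM in endosperm, against 1.06, 3.77, 7.39 and 1.66 CPM in embryos (5.35 ± 0.65, adjusted p = 5.73e-07). No library of these 3 genes overlapped between the tissues. The pectinesterase Solyc01g059940.2.1 had 4.10, 4.12 and 5.89 CPM in endosperm, against 0.0482, 0, 0.0929 and 0.0473 CPM in embryos, at or under the 0.139 to 0.147 CPM that 3 counts make in these libraries. All 20 members with too few embryo counts were called higher in endosperm, in a fit that includes them through their endosperm counts. These calls, which are part of the 59, follow largely from the choice and the filter. On the other side, Solyc03g123540.3.1 had 1.69, 0.623 and 0.808 CPM in HT_DL endosperm, against 8.82, 1.29, 3.72 and 3.03 CPM in HT_DL embryos (-1.87 ± 0.59, adjusted p = 0.0108), and Solyc08g078700.2.1 had 15.8, 5.76 and 9.32 CPM, against 90, 22.9, 38.9 and 25.9 CPM (-1.96 ± 0.61, adjusted p = 0.00925).

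Some members followed the embryo libraries that lay apart, upward at a share near that of all genes and downward at a lower share. Of the 68 members with a mean of at least 1 CPM over the HT_DL and ST_HL embryos, replicates 2 and 3 of both groups all lay above the other 4 libraries in 21 (30.9%), against 28.6% of the 17100 genes at that level, and all below in 2 (2.94%), against 11.4%. The arogenate dehydratase Solyc06g074530.1.1 had 0.723, 3.77, 8.41 and 0.473 CPM in HT_DL embryos 1 to 4, against 0.533, 3.31, 2.35 and 0.288 CPM in ST_HL embryos 1 to 4, and the 3-ketoacyl-CoA synthase Solyc09g083050.3.1 had 0.578, 3.48, 6.23 and 0.52 CPM, against 0.145, 5.38, 3.51 and 0.336 CPM. Solyc04g150104.1.1, named for its size after its values were seen, had 0.0482, 28.2, 34.2 and 0 CPM in HT_DL embryos, against 0.0485, 56.6, 31.1 and 0 CPM in ST_HL. In these 3 genes the HT_DL and ST_HL embryo levels followed the libraries that lay apart and not the condition. Their embryo fold changes against ST_HL therefore rest on the mix of libraries.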

How the data were processed

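Tomato seed embryo and endosperm RNA was sequenced in 26 libraries. The authors mapped reads to the transcriptome of build SL4.0 (annotation ITAG4.0) with Salmon and deposited expected counts per gene ID (estimated counts, 10.5% not whole), not normalized, with a median total of 20878980 per library. Members were found from CPM of the counts as deposited. Counts were rounded to whole numbers and tested with edgeR 4.0.16 in R 4.3.3 (TMM factors, low counts dropped by filterByExpr at 10 per library and 15 in total, quasi-likelihood F test, Benjamini-Hochberg adjustment over all genes). Endosperm and embryo libraries were fitted apart, and all 26 together for the difference between tissues. A call needed an adjusted p below 0.05 and a log2 fold change above 1 or below -1. Standard errors are the log2 fold change over the square root of F. The code was tested on simulated data. The biological coefficient of variation was 0.219 in endosperm and 0.365 in embryo, which sets how small a change could be called. CPM floors cover counting error only.

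Alternatives were DESeq2 1.42.0, limma 3.58.1 (voom), RLE factors, no filter, no fold threshold, only the 2 groups compared, a replicate block, leaving out each replicate or the 4 embryo libraries that lay apart, and other settings of the rule. The check of pairing correlated the deviations of same-numbered libraries from their group means. In HT_DL against ST_HL embryos it gave 0.78 to 0.859 in all 4 pairs, above the limit of 0.1 used for pairing, but 4 pairs of different number (1 with 4 and 2 with 3) gave 0.811 to 0.873, so the correlations follow the libraries that lay apart and do not single out the number. In every other comparison at least 1 pair was at 0.1 or below. Replicates of a group differed by more than counting noise.

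The members and gene lists were chosen with earlier results of these data known. Named genes are the annotated members, the 6 with the highest HT_HL mean, the 4 with the largest ratio of HT_HL to ST_DL, the 3 highest and 3 lowest HT_DL over ST_HL fold changes, the 4 smallest adjusted p of each embryo comparison with ST_HL, and those nearest to a threshold. The ratio and the fold changes were ranked among members with a ST_HL mean of at least 5 CPM. GO and Mapman annotation came from part of the authors' tables. Sequences and coordinates were not used here.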

Additional observations from a re-analysis of the deposited data

Results flagged for a closer look

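In the embryo groups of 4 libraries, the named members were searched for a single library far from the other 3 by the 95% limit of Dixon for the gap to the nearest neighbour, which chance passes in about 1 of 20 groups, or 2.7 of the 54 groups searched. It was passed in 3 groups. In HT_DL embryos, replicate 1 of Solyc08g062340.3.1 stood at 51.4 CPM, against 9.83 to 14.4 CPM in the other replicates. Solyc04g077980.1.1 had 5.67 CPM in HT_DL embryo replicate 3, against 0.386 to 1.28 CPM in the others. Solyc01g059940.2.1 had 0.048 CPM in ST_HL embryo replicate 3 and 0 in the other 3 ST_HL embryos, a difference of 1 count.

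Solyc11g066890.1.1, an arogenate dehydratase, had HT_DL values on opposite sides of ST_HL in the 2 tissues, though neither difference passed edgeR's test (adjusted p = 0.189 in endosperm and 1 in embryo). All HT_DL endosperm libraries were above the ST_HL mean, by 5.47 CPM on average, and all HT_DL embryo libraries were below it, with a mean difference of -2.87 CPM. The difference between the tissues was not tested.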

How the results depend on the processing

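The module held 100 members, and 282 with factors of 1.5 in place of 2, 26 with factors of 3 and 50 with a ST_HL mean of at least 5 CPM. It held 92 to 118 without 1 endosperm library, 90 with TMM library sizes and 131 where overlap was allowed. For the counts of members called, DESeq2 gave 28 higher and 9 lower in HT_DL against ST_HL endosperm (14 and 3 in edgeR), 3 lower in HT_HL against ST_HL embryos (1), 16 lower in ST_DL against ST_HL embryos (7), 3 higher in HT_DL against HT_HL embryos (0) and 19 higher in HT_DL against ST_DL embryos (7). In the same comparisons, limma voom gave 0 lower in endosperm, 3 lower in ST_DL and 3 higher in HT_DL against ST_DL embryos, and no filter on low counts gave 5 lower in endosperm and 4 lower in ST_DL embryos. With no fold threshold, 1 member was higher in HT_DL than in HT_HL embryos. With only the 2 groups compared in the fit, the calls were 0 higher and 0 lower in HT_DL against ST_HL endosperm, 0 lower in HT_HL against ST_HL embryos, 9 lower in HT_DL against HT_HL and 4 higher in HT_DL against ST_DL embryos. With a replicate block, they were 16 higher and 0 lower in endosperm, 3 lower in HT_HL against ST_HL embryos, 16 lower in ST_DL against ST_HL embryos, 3 higher in HT_DL against HT_HL and 14 higher in HT_DL against ST_DL embryos, with 0 either way in HT_DL against ST_HL embryos. The replicate block with only the 2 groups compared, chosen after seeing the data, gave 0 in every comparison within a tissue. Without the 4 embryo libraries that lay apart, 11 were higher in HT_DL than in ST_DL embryos.

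Leaving out 1 library gave 0 to 16 higher and 0 to 4 lower in HT_DL against ST_HL endosperm, 7 to 20 higher and 0 to 2 lower in HT_HL against ST_HL embryos, 0 to 5 lower in ST_DL against ST_HL embryos, 0 to 1 higher and 10 to 21 lower in HT_DL against HT_HL embryos, and 1 to 8 higher in HT_DL against ST_DL embryos. Where a group is left with 2 libraries, its spread is assumed to be that of the other groups. The counts of HT_DL endosperm against embryo moved by less than 1.5 times under these alternatives (59 higher and 13 lower, 59 and 14 with the replicate block). Of the 50 calls of named members, 10 held in every alternative run and 37 in at least 10, and 0 reversed. The 10 were all of HT_DL endosperm against embryo, and each of the 38 calls within a tissue was lost in at least 1 alternative, among them the replicate block with only the 2 groups compared (16 of them in that one alone). The cause of these shifts was not tested.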
